A study of Mus musculus with 9 samples.

Results

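Heat-shock-high nuclei are the nuclei of these mouse hearts that carried many transcripts of 4 heat shock genes, Hspa1a, Hspa1b, Hsph1 and Dnajb1. A barcode was counted as one if it had at least 500 genes and at most 5% mitochondrial UMIs (unique molecular identifiers, which stand for single RNA molecules), and if the summed UMIs of the 4 genes were at least 5 and at least 0.5% of its UMIs. This rule found 334 of 44430 nuclei past the gene and mitochondrial limits, out of 56766 barcodes in all. Of these, 327 came from hearts after ischemia-reperfusion with saline, 7 from hearts after ischemia-reperfusion with enpatoran and 0 from sham hearts. The nuclei were chosen by the UMIs of these 4 genes, so the levels of the genes and the number of nuclei are given as a description with no test. All other genes were free to differ.

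Nuclear RNA was sequenced from flash-frozen, powdered hearts of 9 male wild-type (WT) mice aged 9 to 10 weeks, with 1 library per heart, and the strain is not named in the labels. NS-Sham mice received normal saline (NS) and a thoracotomy with no occlusion. NS-I/R mice received saline and an occlusion of the left anterior descending (LAD) coronary artery for 45 min with 24 h of reperfusion (I/R). Enpa-I/R mice had the same surgery and received enpatoran (Enpa), a TLR7 antagonist, at 5 mg/kg per injection. Every mouse had 2 intraperitoneal injections, the first 1 h before occlusion, while the design text puts the second 2 h later and the treatment protocol puts it directly after ischemia. Each group had 3 hearts, and all values stand for a single time of sampling and for the whole powdered tissue, in which ischemic and remote muscle were not separated.

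The heat shock response is a transcription programme that cells start when proteins misfold, under heat, lack of energy, oxidants or toxic compounds. Its main activator, HSF1, binds heat shock elements, repeats of a short inverted motif upstream of chaperone genes, and is held inactive by chaperones in unstressed cells. Hspa1a and Hspa1b encode the inducible HSP70, which binds exposed hydrophobic stretches of proteins, Dnajb1 encodes a J-domain partner that hands it substrates, and Hsph1 encodes a nucleotide exchange factor that makes it release them.

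The heat shock element core was searched in RefSeq promoter windows as GAANNTTC and TTCNNGAA, which were read on both strands and can overlap each other. Below are the 150 bases before the annotated start of the 4 genes of the rule and of Hspb1, and 30 bases of the Hspe1 window, all 5′ to 3′ on the strand of the gene, with the bases of each motif match in capitals. They are shown because the 4 genes chose the nuclei and because Hspb1 and Hspe1, small and mitochondrial chaperone genes, are among the genes tested below. Coordinates are those of RefSeq on GRCm38.p6. Hspa1a lies at chr17:34972157-34972306 on the minus strand, Hspa1b at chr17:34959239-34959388 on the minus strand, Hsph1 at chr5:149636337-149636486 on the minus strand, Dnajb1 at chr8:83608025-83608174 on the plus strand, Hspb1 at chr5:135887769-135887918 on the plus strand, and the Hspe1 stretch at chr1:55088052-55088081 on the plus strand.
Hspa1a: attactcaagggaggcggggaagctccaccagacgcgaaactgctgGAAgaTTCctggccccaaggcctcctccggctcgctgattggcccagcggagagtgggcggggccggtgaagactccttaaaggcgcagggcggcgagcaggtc
Hspa1b: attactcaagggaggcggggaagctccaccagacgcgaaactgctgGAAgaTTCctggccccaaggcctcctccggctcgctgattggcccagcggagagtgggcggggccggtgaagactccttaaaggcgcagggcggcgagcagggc
Hsph1: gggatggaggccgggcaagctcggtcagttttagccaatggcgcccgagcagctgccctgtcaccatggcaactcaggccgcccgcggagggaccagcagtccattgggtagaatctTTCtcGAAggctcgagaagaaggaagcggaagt
Dnajb1: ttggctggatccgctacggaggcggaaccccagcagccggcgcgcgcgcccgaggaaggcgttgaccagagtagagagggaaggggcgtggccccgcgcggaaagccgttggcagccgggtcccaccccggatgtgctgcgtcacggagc
Hspb1: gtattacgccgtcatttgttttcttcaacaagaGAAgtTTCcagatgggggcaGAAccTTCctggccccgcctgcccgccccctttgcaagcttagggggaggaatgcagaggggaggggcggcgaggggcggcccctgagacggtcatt
Hspe1: cggtccgTTCtaGAAccTTCcgGAAggccc

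The motif stood in 3 of the 4 genes of the rule, with its first base at −104 in Hspa1a and Hspa1b and at −33 in Hsph1, counted back from the base before the start, and in the window of Dnajb1 these letters did not occur. The windows of Hspa1a and Hspa1b were identical at 149 of 150 bases. These genes are near-identical copies in their coding parts too, so how the deposited counts split them is uncertain, and their sum is the safer value. Hspb1 held matches at −117 and −97, and Hspe1 held 3 overlapping matches, at −89, −84 and −79. Over windows of 250 bases before the start, 7 of the 20 chaperone and heat shock genes that were higher in heat-shock-high nuclei and present in the RefSeq table held the motif (35%), against 828 of 6907 genes tested and 14.5% of all 27025 genes of the table. Among all genes higher in heat-shock-high nuclei it was 13.5% of 475, and among those lower 14.3% of 126. Of the 7 chaperone and heat shock genes, Dnaja4, Dnajb4 and Hspd1 held the motif at only 1 of 2 annotated starts and were counted through it. A match is a description of the letters and not a mapped binding site. Windows of Hsp90aa1, Hspa8, Hsp90ab1, Cryab and Egr1 were not used here.

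Libraries held 19651794 to 38970153 UMIs over 4079 to 8198 barcodes, and 3274 to 6910 nuclei per library passed the limits. Kept nuclei had a median of 2411.5 to 3347.5 UMIs per library. Of 44169 different kept barcodes, 260 occurred in more than 1 library, and 4 of the 334 heat-shock-high barcodes were kept in another library too, none of them as a heat-shock-high nucleus there. The labelled tissue was matched by its markers: of 28 clusters all but 2 could be named as a heart cell class from their markers, the largest cardiomyocyte-like, fibroblast-like, endothelial-like and pericyte-like.

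Heat-shock-high nuclei were found almost entirely in the saline ischemia-reperfusion hearts, and their number differed between those hearts. In NS-I/R replicates 1 to 3 there were 192, 81 and 54, which were 3.78% (95% exact binomial interval 3.28% to 4.35%) of 5075 nuclei, 1.49% (1.18% to 1.84%) of 5452 and 0.933% (0.702% to 1.22%) of 5786. The group mean was 2.07% ± 1.51 (SD, n = 3). Enpa-I/R replicates 1 to 3 held 2 of 5945, 4 of 3274 and 1 of 4942 nuclei, or 0.0336%, 0.122% and 0.0202%, with a mean of 0.0587% ± 0.0554 (SD, n = 3). None was found among 3551, 6910 and 3495 nuclei of the NS-Sham hearts, which allows a share of up to 0.0215% of the 13956 nuclei. The lowest NS-I/R share was above the highest Enpa-I/R share, so these groups did not overlap. Replicate 1 supplied 192 of the 327 NS-I/R nuclei, and without it the NS-I/R mean was 1.21%. Intervals and limits cover counting error only.

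**Figure D1:**
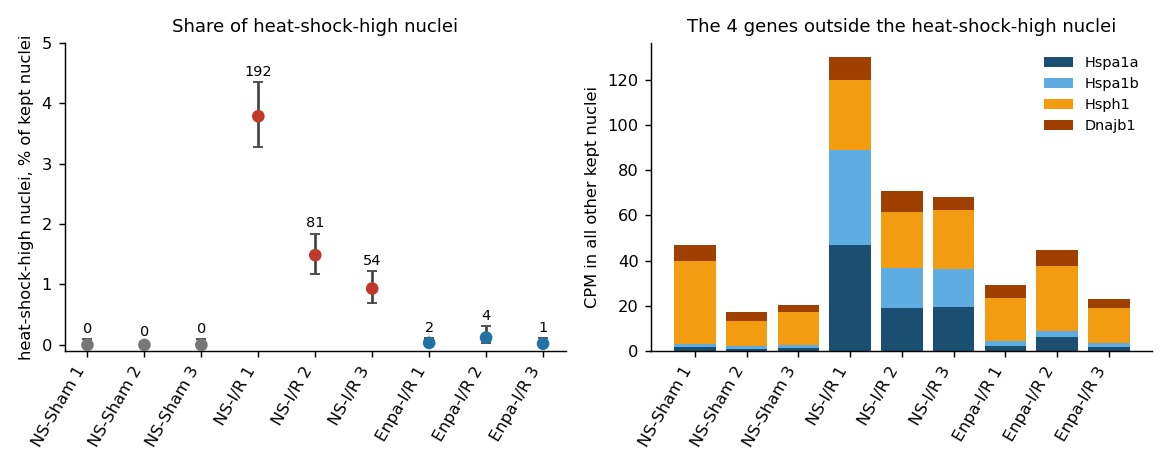
Left, the share of heat-shock-high nuclei in each of the 9 libraries (y axis, percent of kept nuclei, bars are 95% exact binomial intervals, numbers are nuclei). Right, the level of each of the 4 genes in all other kept nuclei, as stacked CPM (UMIs of a gene scaled to all UMIs of those nuclei); the NS-I/R libraries hold 54 to 192 heat-shock-high nuclei, the other libraries 0 to 4, and in NS-I/R replicate 1 the other nuclei stood at 130 CPM.

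The sum of the 4 genes was also higher in the remaining NS-I/R nuclei, at a far lower level. Outside the heat-shock-high nuclei the 4 genes summed to 130, 70.7 and 68.3 CPM in NS-I/R, 47.0, 17.4 and 20.2 CPM in NS-Sham and 29.4, 44.7 and 23.0 CPM in Enpa-I/R. Each NS-I/R library was above all 6 others, and the NS-Sham and Enpa-I/R ranges overlapped. Hspa1a alone stood at 47.0, 18.9 and 19.6 CPM in the other NS-I/R nuclei, against 0.832 to 1.76 CPM in NS-Sham and 1.78 to 6.08 CPM in Enpa-I/R. In NS-I/R, 76.4%, 70.1% and 75.2% of all UMIs of the 4 genes were in the heat-shock-high nuclei, which were 0.933% to 3.78% of the nuclei. Hspa1a or Hspa1b was detected in 9.67% to 18.5% of the other NS-I/R nuclei of each of 13 cell classes, outside 1 unnamed cluster described below, with class medians of 1258.5 to 8384.5 UMIs. The same share was 0 to 6.55% in NS-Sham classes and 0 to 5.99% in Enpa-I/R classes. Free RNA in the droplets and expression in the nuclei cannot be told apart at that level.

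Lowering the threshold to 3 UMIs and 0.3% brought 2 NS-Sham nuclei into the set, a mean share of 0.0142%. Just inside the limits, with 5 or 6 UMIs or under 0.6%, lay 30 nuclei, 29 of NS-I/R and 1 of Enpa-I/R, with a median of 10 UMIs of the 4 genes and 0.555%. Just outside, with at least 4 UMIs and 0.4%, lay 36 nuclei, 34 of NS-I/R, 1 of Enpa-I/R and 1 of NS-Sham, with a median of 8.5 UMIs and 0.455%. Nuclei with 5 or more UMIs of the 4 genes numbered 492 in NS-I/R, 25 in Enpa-I/R and 13 in NS-Sham, and 165 of the 492 missed the 0.5% limit.

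Within the NS-I/R set the level of the 4 genes ranged from 5 to 733 UMIs per nucleus, with a median of 28 and quartiles of 16 and 59.5. As a share of the nucleus's UMIs the span was 0.50% to 19.9%, with a median of 1.4%. The medians were 24.5, 29 and 44.5 UMIs in NS-I/R replicates 1 to 3, so that the library with the most nuclei had the lowest median. Heat-shock-high nuclei were shallower than the other NS-I/R nuclei, with a median of 1775 against 2560 UMIs and 1033 against 1434 genes, and their median mitochondrial share was 1.02% against 0.904%. Nuclei with a high doublet score numbered 8, 6 and 5 in the 3 NS-I/R libraries.

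**Figure D2:**
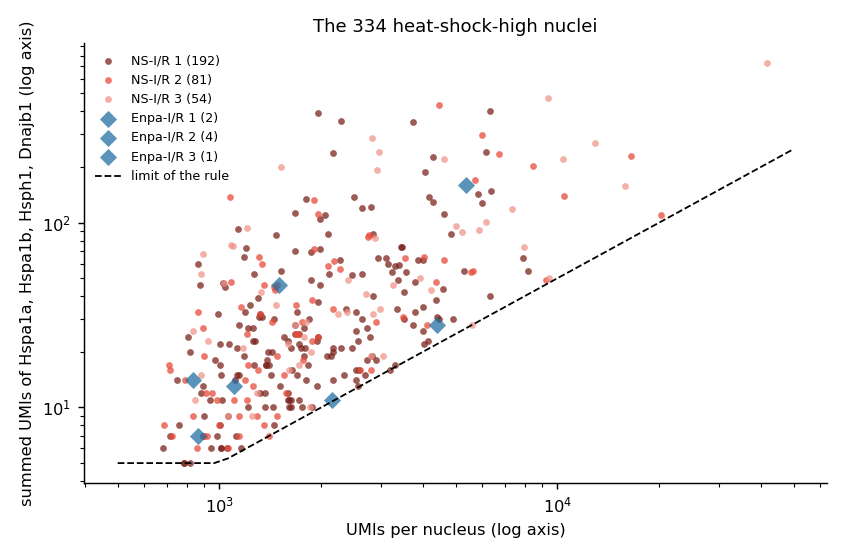
Each point is 1 of the 334 heat-shock-high nuclei, by its UMIs (x axis, log scale) and the summed UMIs of the 4 genes (y axis, log scale), coloured by library, with the limit of the rule as a dashed line. NS-I/R nuclei reach 733 UMIs of the 4 genes, and the 7 Enpa-I/R nuclei, drawn as diamonds, range from 7 to 159.

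Both HSP70 genes supplied most of the signal. Of the UMIs of the 4 genes in NS-I/R heat-shock-high nuclei, Hspa1a held 8122 (44.7%), Hspa1b 6941 (38.2%), Hsph1 2607 (14.3%) and Dnajb1 507 (2.79%). Hspa1a was detected in 321 of the 327 nuclei, Hspa1b in 316, Hsph1 in 234 and Dnajb1 in 122, against 7.62%, 7.05%, 8.51% and 3.18% of the other NS-I/R nuclei. All 4 genes were detected together in 99 nuclei, 3 of them in 148, 2 in 73 and 1 in 7. Only 1 nucleus had neither HSP70 gene, and 311 had both. Hsph1 was the highest of the 4, or tied for it, in 38 nuclei and Dnajb1 in 2. Without Hspa1a in the sum 291 of the 327 would still have 5 UMIs, without Hspa1b 295, without Hsph1 319 and without Dnajb1 326. Each gene was then taken as a share of the UMIs of its nucleus, across the 327 nuclei, which share libraries and differ in depth. Pearson's r of these shares was 0.71 between Hspa1a and Hspa1b (Spearman's rho 0.45), and 0.099 to 0.34 between the other pairs. The nuclei were chosen by the sum of these genes, and how the counts split the HSP70 genes is uncertain, so r is a description only.

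The heat-shock-high nuclei came from several cell classes. Clusters were built without the 4 genes and without the chaperone and heat shock lists, and 214 of the 327 NS-I/R nuclei (65.4%) still fell into 1 cluster that stayed unnamed. To class each nucleus on its own, its marker UMIs were compared with the marker profile of every named class, and a class was given where at least 10 marker UMIs, of at least 2 different markers of the class, favoured it by at least 3 natural log units. This gave a class to 194 of the 327 (59.3%), and 47 of the 327 lay within 3 to 5 units of the next class. Of the 86 nuclei that had both a named cluster and a marker class, 77 (89.5%) had the same one. Named nuclei thinned to 1500 UMIs received a class in 82.9% of cases, and 95.3% of those received the class of their cluster, although only 60.1% of the neutrophil-like ones did.

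Endothelial-like nuclei were the most numerous, with 77 of the 327, 51, 19 and 7 by replicate, which were 4.64%, 1.78% and 0.698% of the endothelial-like nuclei of those libraries. They carried the endothelial receptor gene Flt1 in 63 of 77, the fatty acid binding protein gene Fabp4 in 60 and the adhesion molecule gene Pecam1 in 55. Neutrophil-like nuclei followed with 34 of 1186, 13, 6 and 15 by replicate, or 3.92%, 2.08% and 2.65%. Of these, 22 had UMIs of the granulocyte colony-stimulating factor receptor gene Csf3r, 19 of S100a8 and 20 of S100a9, the calprotectin subunits, while the neutrophil markers G0s2 and Ly6g were at 0. Pericyte-like nuclei numbered 31 of 1058, 26, 5 and 0 by replicate, with the potassium channel subunit gene Abcc9 in 27 and Rgs5 in 24. Pericyte-like and fibroblast-like nuclei thus rested on NS-I/R replicate 1, which held 26 of the 31 and 17 of the 18.

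Cardiomyocyte-like nuclei were few, with 18 of 3179, 2, 9 and 7 by replicate, or 0.224%, 0.753% and 0.641%. The sarcomere genes Ttn and Myh6 were detected in all 18 and the calcium release channel gene Ryr2 in 17. Fibroblast-like nuclei numbered 18 of 2707, smooth muscle-like 5 of 315 and macrophage-like 5 of 1258. B lymphocyte-like and lymphatic endothelial-like classes had 2 each, and the Schwann-like and T and NK lymphocyte-like classes 1 each. No endocardial-like nucleus was found among 555, which allows a share of up to 0.541%, and none among 67 mesothelial-like nuclei. The remaining 133 nuclei, 71, 41 and 21 by replicate, received no class and were 5.67% of all unclassed NS-I/R nuclei, with a median of 1277 UMIs. Cardiomyocyte-like nuclei were deeper, at a median of 8398 UMIs, than endothelial-like ones at 1758.5 or neutrophil-like ones at 1236, and the part of depth in the class shares was not tested.

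**Figure D3:**
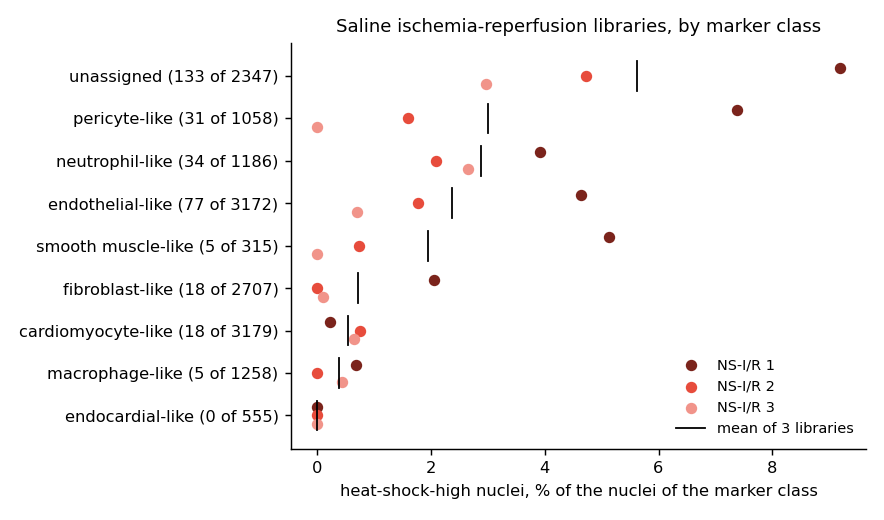
Share of heat-shock-high nuclei (x axis, percent of the nuclei of a marker class) in the 3 NS-I/R libraries, 1 point per library, with the mean of 3 libraries as a bar and the pooled numbers beside each class name. NS-I/R replicate 1 is highest in every class with heat-shock-high nuclei except the cardiomyocyte-like class, where it is lowest, and the neutrophil-like shares lie between 2.08% and 3.92%.

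By cluster in place of marker class, 37 heat-shock-high nuclei were neutrophil-like, 13, 11 and 13 by replicate, or 2.51%, 2.34% and 1.94% of the cluster. The endothelial-like clusters held 28, the cardiomyocyte-like clusters 20, the fibroblast-like clusters 9 and the macrophage-like clusters 8. The unnamed cluster had 408 nuclei, 271, 90 and 33 in NS-I/R, 0, 0 and 2 in NS-Sham and 5, 5 and 2 in Enpa-I/R, and its 10 leading genes included the heat shock genes Hspa1a, Hspa1b, Hsph1 and Hsp90aa1 and the immediate early genes Egr1 and Atf3. Heat-shock-high nuclei were 219 of the 408, and of the 214 from NS-I/R 56 were endothelial-like by marker class, 28 pericyte-like, 11 fibroblast-like and 8 neutrophil-like, with 106 unclassed.

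Which other genes differed was asked by pairing each NS-I/R heat-shock-high nucleus with the 5 nuclei of the same library and marker class that were nearest in UMIs without the 4 genes. The 133 nuclei with no marker class were paired with other unclassed nuclei, so cell class was not matched for them. This comparison was added after the data were seen, because most of these nuclei had no named cluster. UMIs were summed per library, and the 3 pairs of sums were tested with edgeR's quasi-likelihood test with the library as a block and Benjamini-Hochberg adjustment over 8740 genes. CPM of the edgeR fits are TMM-normalised, leave the 4 genes out and are scaled to the genes that a fit tested. Levels from fits of different numbers of genes are therefore not on one scale. Sums with Poisson intervals and sums of marker sets are scaled to all UMIs except those of the 4 genes. Each fold change is on the log2 scale, with an SE derived from the F statistic of the test. At an adjusted p under 0.05, 777 genes (8.89%) differed, 615 higher (7.04%) and 162 lower (1.85%). These shares are the background for the gene groups that follow.

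Of the cytosolic chaperone genes other than the 4 of the rule, 15 rose and 0 fell. The list holds 30 genes and 28 could be tested, with a median log2 fold change of 1.48 against −0.02 over all genes tested. Hsp90aa1, the inducible HSP90, stood at 5242, 4089 and 5847 CPM in heat-shock-high nuclei of NS-I/R replicates 1 to 3 and at 247, 191 and 88.6 CPM in their matched nuclei. Its fold change was the largest of the tested chaperone genes, at 4.92 ± 0.34 (adjusted p = 9.80e-08), and 90.5% of heat-shock-high nuclei had a UMI of it against 26.2% of matched nuclei. Its constitutive relative Hsp90ab1 had 1361, 1713 and 1882 CPM against 238, 204 and 201 CPM, a change of 2.93 ± 0.26 (adjusted p = 8.15e-07). Hspa8, the constitutive HSP70, had 1365, 1506 and 1156 CPM against 178, 210 and 153 CPM, a change of 2.90 ± 0.24 (adjusted p = 5.11e-07). In none of these did the sets of 3 libraries overlap.

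Many partners of HSP70 and HSP90 rose too. The J-domain protein gene Dnaja1 had 989, 1071 and 885 CPM against 109, 70.1 and 67.8 CPM (3.59 ± 0.27, adjusted p = 1.65e-07). Bag3, a nucleotide exchange factor of HSP70 that directs clients to autophagy, had 1138, 1713 and 1274 CPM against 124, 186 and 123 CPM (3.26 ± 0.25, adjusted p = 2.11e-07). Dnajb4, a close relative of Dnajb1, had 334, 324 and 379 CPM against 51.5, 65.2 and 43.8 CPM (2.70 ± 0.27, adjusted p = 4.07e-06). The other J-domain and HSP70 family genes that passed were Dnaja4 at 2.59 and Hspa4l at 2.16. Among HSP90 cochaperones, Ahsa1, which stimulates its ATPase, changed by 2.98, Chordc1 by 2.02, Stip1, the adaptor between HSP70 and HSP90, by 1.87, St13 by 1.52 and Ptges3 by 1.39, with adjusted p from 0.000153 to 0.0033. Unc45b, a chaperone of myosin, changed by 2.93 and Cacybp by 2.76.

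The 13 cytosolic genes that did not pass were Fkbp4, Hspa4, Bag2, Ahsa2, Dnaja2, Sugt1, Dnajb6, Dnajb2, Dnajc7, Stub1, Bag1, Cdc37 and Hspbp1. Their estimates ran from −0.53 for Stub1, a ubiquitin ligase that acts on chaperone clients, to 1.44 for Fkbp4, whose adjusted p was 0.0505. Fkbp4 passed at an adjusted p of 0.044 when matched nuclei of the unnamed cluster were left out. The estimate of Cdc37, which loads kinases onto HSP90, was 0.32 ± 0.35, and that of Hspa4 was 0.85 ± 0.28.

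**Figure D4:**
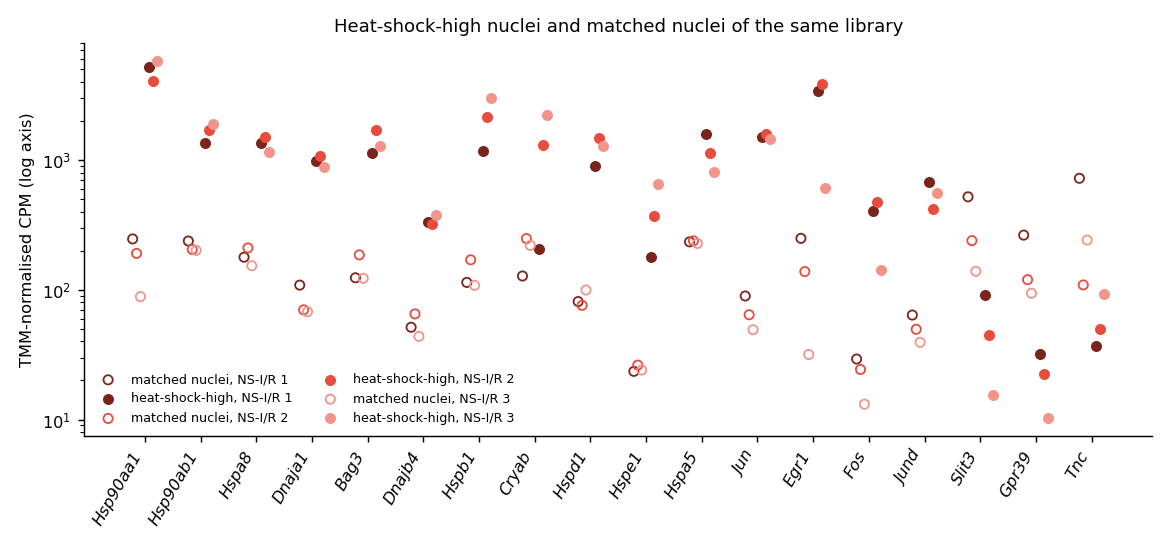
TMM-normalised CPM (y axis, log scale) of 18 genes in heat-shock-high nuclei (filled) and matched nuclei (open), 1 point per NS-I/R library. For Hsp90aa1 the filled points lie at 4089 to 5847 and the open ones at 88.6 to 247, while for Cryab the replicate 1 points are at 208 and 128.

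Small heat shock proteins, which hold unfolding proteins without using ATP, were split. Of 7 listed 5 could be tested and 3 were higher, with a median of 1.86. Hspb1 had 1175, 2153 and 2998 CPM against 114, 170 and 108 CPM (3.92 ± 0.30, adjusted p = 2.11e-07), and it was detected in 60.6% of heat-shock-high nuclei against 18.0% of matched nuclei. Cryab, the lens and muscle crystallin, had 208, 1300 and 2230 CPM against 128, 248 and 220 CPM (2.19 ± 0.37, adjusted p = 0.000943). Its replicate 1 value was much lower than the other two and lay within the range of the matched nuclei, and it was detected in 27.8% against 25.1% of nuclei. Hspb8, the partner of Bag3, changed by 1.86 ± 0.37 (adjusted p = 0.0032). The estimates of Hspb7 and Hspb6, both abundant in muscle, were −0.45 and −0.52 and did not pass.

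Of the mitochondrial chaperones the chaperonin pair rose. Hspd1 and Hspe1, which encode the HSP60 ring and its lid and are transcribed from a shared promoter region in opposite directions, were the 2 of 9 listed genes that passed, and the list's median was 0.09. Hspd1 had 905, 1473 and 1289 CPM against 81.2, 75.9 and 99.6 CPM (3.80 ± 0.27, adjusted p = 9.80e-08). Hspe1 had 178, 374 and 650 CPM against 23.5, 26.3 and 24.1 CPM (3.79 ± 0.33, adjusted p = 8.15e-07). The mitochondrial HSP70 gene Hspa9 had an estimate of 0.06 ± 0.31 (adjusted p = 0.941), and those of Trap1, the mitochondrial HSP90, and of the proteases Lonp1 and Clpp were 0.07, −0.10 and −0.26. The cytosolic chaperonin TRiC, which folds actin and tubulin, had 0 of 8 genes called and a median of 0.15.

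Of other genes known to respond to heat shock, 6 of 12 tested were higher and 1 lower, with a median of 1.11. The polyubiquitin gene Ubb had 171, 234 and 890 CPM against 58.1, 49.6 and 56.9 CPM (2.59 ± 0.37, adjusted p = 0.000204). Serpinh1, the collagen chaperone HSP47, changed by 1.96 ± 0.27, and Zfand2a, a regulator of the proteasome under stress, by 2.67 ± 0.40. The 1 lower gene was Fkbp5, a glucocorticoid-responsive cochaperone named here after its value was seen, at 389 ± 52.6 against 797 ± 260 CPM (SD, n = 3), a change of −0.99 ± 0.28 (adjusted p = 0.0305). Of the HSF family and its regulators 3 of 6 could be tested. Ier5, which is known to help activate HSF1, had 163, 78.1 and 297 CPM against 37.7, 37.0 and 38.3 CPM (2.13 ± 0.34, adjusted p = 0.000603), while the estimates for Hsf1 and Hsf2 were −0.16 and 0.93. None of 24 tested proteasome subunits was called, and their median was −0.27. That is below the 8.89% background of genes called.

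The unfolded protein response of the endoplasmic reticulum (ER) was higher in part, in 6 of 18 genes tested with 0 lower and a median of 0.54. Hspa5, the ER HSP70 known as BiP, had 1581, 1127 and 803 CPM against 234, 238 and 228 CPM (2.28 ± 0.26, adjusted p = 1.65e-05). Dnajb9, its J-domain partner, changed by 2.48 ± 0.45, and the estimates of the folding enzyme gene Pdia3 and the degradation factor gene Edem1 were 1.14 ± 0.27 and 1.21 ± 0.30, both called. The estimates of the sensors and factors Xbp1, Atf6 and Ern1 were 0.12, 0.30 and 0.09. Of the integrated stress response 1 of 7 genes was called, Ppp1r15a, which encodes the phosphatase subunit that restores translation, with 240, 139 and 235 CPM against 24.0, 17.5 and 16.4 CPM (3.37 ± 0.32, adjusted p = 1.72e-06).

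Immediate early genes, which cells switch on within minutes of a stimulus, were higher in 18 of 22 tested, with 0 lower and a median of 1.82. Jun had 1494, 1590 and 1458 CPM against 89.6, 64.2 and 49.2 CPM (4.50 ± 0.28, adjusted p = 4.72e-08). Its values were alike in the 3 libraries, in contrast to those of Egr1. The zinc finger factor gene Egr1 had 3394, 3849 and 609 CPM against 249, 138 and 31.7 CPM (4.26 ± 0.29, adjusted p = 9.80e-08), so that replicate 3 was low in both kinds of nuclei. Fos had 403, 474 and 143 CPM against 29.3, 24.3 and 13.1 CPM (3.87 ± 0.30, adjusted p = 2.11e-07), and Jund changed by 3.42 ± 0.27. UMIs of Jun were detected in 62.1% of heat-shock-high and 12.4% of matched nuclei, those of Egr1 in 67.9% against 16.5%, and those of Fos in 31.2% against 4.34%. The estimates of Fosl1, Fosl2, Klf2 and Myc, at −0.83, 0.46, 0.51 and 0.12, did not pass.

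Other programmes were called at or near the background. Of the inflammatory genes 1 of 18 was higher, Tnf, with 61.8, 22.3 and 81.9 CPM against 4.88, 5.84 and 4.38 CPM (3.38 ± 0.55, adjusted p = 0.000606), and the estimates of Il6, Il1b, Ccl2 and Cxcl1 were −1.19, −0.31, −0.43 and −0.45 without passing. Of oxidative stress genes 2 of 14 were higher, Ftl1 (1.51 ± 0.31), an iron storage subunit, and Hmox1 (1.53 ± 0.38), which degrades heme. The autophagy gene Gabarapl1 (1.54 ± 0.37), 1 of 14, the hypoxia gene Ndrg1 (1.04 ± 0.30), 1 of 11, and Klf4 (1.20 ± 0.30), 1 of 12 endothelial genes, were the calls in their lists. None of 5 tested Toll-like receptor and beta-2 integrin genes was called, with a median of −0.26, and none of 8 cell cycle genes passed the low-count filter.

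**Figure D5:**
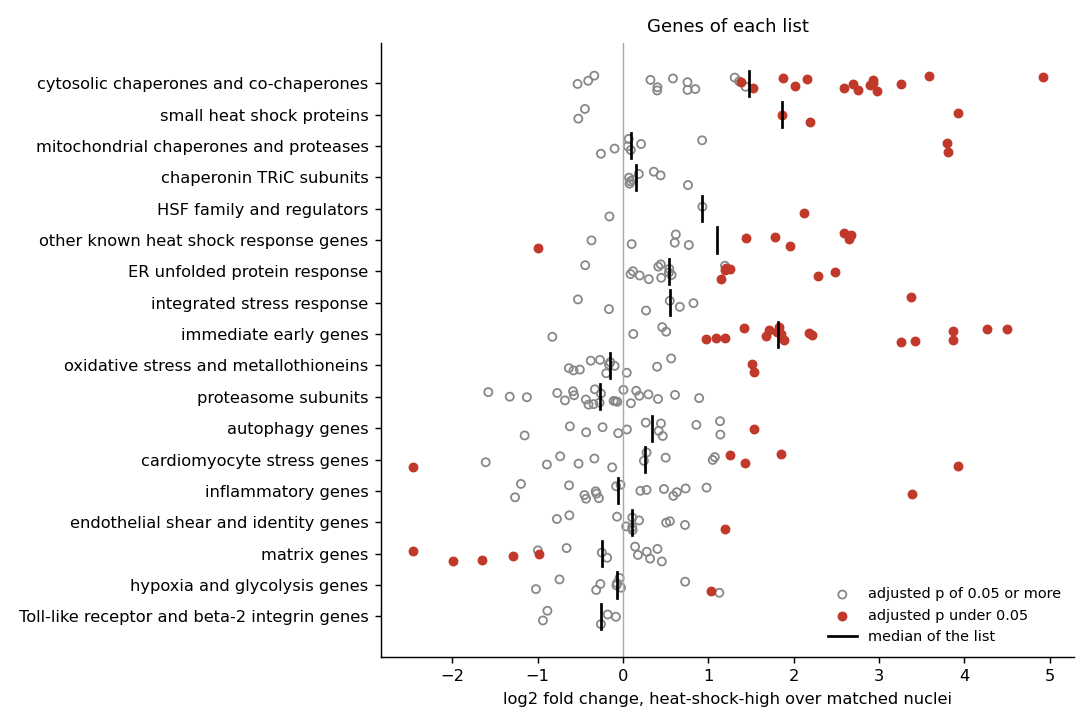
Each point is a tested gene of a list, by its log2 fold change in heat-shock-high over matched nuclei of the 3 NS-I/R libraries (x axis), filled where the adjusted p of edgeR is under 0.05, with the list's median as a bar. Chaperone, small heat shock and immediate early lists have medians of 1.48, 1.86 and 1.82, and the proteasome list has a median of −0.27 and no call.

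The cardiomyocyte stress list had 4 of 16 genes higher and 1 lower, and 2 of the higher calls rested on the cardiomyocyte-like nuclei. Flnc, a filamin of the Z-disc, had 156, 1813 and 2312 CPM against 80.8, 466 and 400 CPM (1.86 ± 0.29), and Xirp2, another Z-disc protein gene, had 210, 3135 and 6931 CPM against 134, 867 and 2145 CPM (1.43 ± 0.27). Without the cardiomyocyte-like nuclei Flnc was at 0.73 (adjusted p = 0.0664), Xirp2 at 0.45 (adjusted p = 0.21) and Cryab at 0.96 (adjusted p = 0.0514), and all 3 calls were lost. Unc45b was at 1.37 (adjusted p = 0.0059) and Hsp90aa1 at 4.89 without them. In the 18 cardiomyocyte-like heat-shock-high nuclei Unc45b summed to 1995 CPM (95% Poisson interval 1769 to 2243) against 69.4 CPM in the other 3161 of the class, and Cryab to 3011 CPM (2731 to 3311) against 298 CPM. In the 77 endothelial-like ones Unc45b was at 152 CPM (99.2 to 223) against 112 CPM and Cryab at 99.3 CPM (57.9 to 159) against 131 CPM. Hsp90aa1 was high in every class counted, with 2066 CPM in cardiomyocyte-like, 2707 in fibroblast-like, 4338 in neutrophil-like, 4413 in pericyte-like and 7138 in endothelial-like nuclei, against 75.5 to 171 CPM in the other nuclei of those classes. These intervals cover counting error only, and the sums carry no test. Over all 327 heat-shock-high nuclei, the 5 nuclei with the most UMIs of a gene held 52.0% for Unc45b and 42.0% for Cryab.

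Several genes beyond the lists with large fold changes had few UMIs. Cdkn2a, a locus that encodes inhibitors of the cell cycle, had 52.0, 33.5 and 87.0 CPM against 0.887, 2.92 and 1.09 CPM (5.07 ± 0.65, adjusted p = 6.15e-05), from 44 UMIs in 16 of the 327 nuclei. The kinesin gene Kif28 changed by 4.98 ± 0.72, but 46.9% of its UMIs were in 1 nucleus. Hspa1l, the testis-type HSP70 gene beside Hspa1a, changed by 4.75 ± 0.42 from 97 UMIs, and the counting may share its reads with the other HSP70 genes. Ccnb1ip1 (4.41 ± 0.59), the ubiquitin ligase gene Cblc (4.36 ± 0.66), Zcwpw1 (4.14 ± 0.80) and Morc4 (4.00 ± 0.53) had 21 to 61 UMIs each.

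Genes that fell included matrix genes and several leading genes of 1 fibroblast-like cluster. Of 15 tested matrix genes 5 were lower and 0 higher, with a median of −0.25. Tnc, an adhesion-modulating matrix protein gene, had 37.1, 50.2 and 92.1 CPM against 724, 109 and 242 CPM (−2.46 ± 0.47, adjusted p = 0.00247), and the estimates of Fbn1, Col5a2 and Col4a2, all called, were −1.29, −1.65 and −0.98. The guidance factor gene Slit3 had 91.5, 44.6 and 15.3 CPM against 521, 239 and 139 CPM (−2.59 ± 0.31, adjusted p = 2.93e-05). Gpr39, a zinc-sensing receptor gene, had 32.2, 22.3 and 10.2 CPM against 264, 120 and 94.1 CPM (−2.90 ± 0.37, adjusted p = 6.26e-05). Hmga2, a chromatin protein gene, had 1 UMI against 213, a ratio of 0.0225 with a counting interval of 0.000566 to 0.126. The estimates of Csmd1, Mfap5, a microfibril gene, and Sh2d5 were −2.75, −2.50 and −2.56, all called, and Nubp1, Ltbp2, Rnf219 and Ankrd49 were called on 1 to 4 UMIs.

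Tnc, Gpr39 and Hmga2 are among the 10 leading genes of that cluster, and Sh2d5 leads an endothelial-like cluster. The 10 fibroblast markers, none of them at 0 in fibroblast-like heat-shock-high nuclei, summed to 1769, 336 and 328 CPM in heat-shock-high and to 1584, 534 and 662 CPM in matched nuclei. Over the 16 marker sets the sums in heat-shock-high nuclei were higher in all 3 libraries for T and NK lymphocyte markers, at 41.0 to 129 against 16.2 to 68.4 CPM, for B lymphocyte markers, at 1262 to 2135 against 1122 to 1839 CPM, and for erythroid markers, at 137 to 284 against 118 to 136 CPM. They were lower in all 3 for smooth muscle, lymphatic endothelial and Schwann markers, the last at 23.6 to 115 against 49.5 to 165 CPM. The part of these differences in the calls was not tested.

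The number of calls depended on the libraries. Without NS-I/R replicate 1 there were 369 higher and 91 lower genes, without replicate 2 there were 473 and 99, and without replicate 3 there were 940 and 431. Without the library block 188 genes were higher and 8 lower, and Cryab, Hspb8, Unc45b, Hspa4l, Stip1, Flnc, Xirp2, Tnc and Slit3 were among the genes no longer called. All 64 named genes that were called kept their direction in each of 13 other fits, and 37 were called in every one of them, among these Hsp90aa1, Hsp90ab1, Hspa8, Dnaja1, Bag3, Hspb1, Hspd1, Hspe1, Hspa5, Ppp1r15a, Tnf, Jun, Egr1, Fos and Jund. The p-values rest on 3 hearts, and edgeR moderates the spread of each gene with that of the other genes tested. They are thus not a measure of the spread of a single gene between 3 hearts alone.

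The other genes were also tested within single marker classes, again a choice made after the data were seen. Depth was not matched in these fits. Endothelial-like heat-shock-high nuclei had a median of 1954 UMIs, against 1758.5 over the class in NS-I/R. Against all other nuclei of the endothelial-like marker class, 77 heat-shock-high nuclei differed in 229 of 9405 genes (2.43%), 151 higher (1.61%) and 78 lower (0.829%). Hsp90aa1 had 6823, 6070 and 13943 CPM against 232, 178 and 125 CPM (5.57 ± 0.36, adjusted p = 9.10e-51). These values came from 51, 19 and 7 heat-shock-high nuclei, and the limit on p-values given above holds for all fits that follow. Cytosolic chaperones were higher in 8 of 28 with a median of 1.13, and immediate early genes in 10 of 21 with a median of 1.77, against −0.30 over all genes tested. Nos3, the endothelial nitric oxide synthase gene, had 142, 48.6 and 141 CPM against 466, 485 and 435 CPM (−2.08 ± 0.50, adjusted p = 0.00324), the 1 call among 13 endothelial genes.

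Against the other nuclei of the neutrophil-like marker class, 34 heat-shock-high nuclei differed in 118 of 5466 genes (2.16%), 90 higher (1.65%) and 28 lower (0.512%). The 34 nuclei were deeper, with a median of 2787.5 UMIs against 1236 over the class, and the part of depth in these calls was not tested. Hsp90aa1 had 5593, 1811 and 6053 CPM against 297, 203 and 131 CPM (4.35 ± 0.37, adjusted p = 1.02e-27). Cytosolic chaperones were higher in 6 of 20 with a median of 0.97, and immediate early genes in 9 of 18 with a median of 1.74, against −0.20 over all genes tested. The interleukin gene Il1b had 211, 0 and 57.4 CPM against 761, 372 and 189 CPM (−2.26 ± 0.55, adjusted p = 0.00476), the 1 call among 15 inflammatory genes, while in endothelial-like nuclei its estimate was 0.44 ± 1.09. The difference between these classes was not tested. In the planned test of the neutrophil-like cluster, given below, 0 of 16 inflammatory genes were called. Against matched nuclei the estimate of Il1b was −0.31 without passing, and its 0 CPM above came from 6 nuclei of replicate 2. Higher genes common to both classes numbered 39, which were 25.8% of the endothelial-like and 43.3% of the neutrophil-like calls, and included Hsp90aa1, Hsp90ab1, Hspa8, Hspb1, Hspd1, Hspe1, Bag3, Dnaja1, Jun, Egr1 and Ppp1r15a.

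In the neutrophil-like cluster, 37 heat-shock-high nuclei were compared with 1620 others. Some of the 37 were unclassed, endothelial-like or cardiomyocyte-like by marker class. Of the thinned nuclei of this cluster that received a class, only 60.1% were neutrophil-like. The calls are thus not those of neutrophil-like nuclei alone. They differed in 163 of 7239 genes (2.25%), 99 higher (1.37%) and 64 lower (0.884%). Hsp90aa1 had 4331, 3816 and 5424 CPM against 258, 230 and 136 CPM (4.48 ± 0.33, adjusted p = 9.62e-39), and Hspd1, Egr1, Jun and Hspb1 changed by 4.24, 4.47, 3.96 and 3.51. The calls were 5 of 23 cytosolic chaperones, 2 of 6 mitochondrial chaperones, 1 of 4 small heat shock genes and 7 of 19 immediate early genes, all higher. Without replicates 1, 2 and 3 in turn, 53, 51 and 34 genes were higher and 33, 28 and 3 lower. Of the named genes called, 12 were called in every one of 9 other fits, among them Hsp90aa1, Hsp90ab1, Hspa8, Dnaja1, Bag3, Hspb1, Hspd1, Egr1, Jun, Fos and Dnah12.

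Genes that fell in this cluster included many at 0. Fstl1, a secreted glycoprotein gene of mesenchymal cells, had 0 UMIs in the heat-shock-high nuclei and 553 in the others, at least 5.44-fold lower against 3 counts over the group, and Egfr, the epidermal growth factor receptor gene, was at least 4.66-fold lower. Tenm3, Mir100hg, Bnc2, Fbln2, C7 and Mvb12b were at 0 too, with bounds of 2.93-fold to 4.10-fold. Tnc had 0, 100 and 30.3 CPM against 671, 481 and 136 CPM, and Slit3 had 2 UMIs against 879. Abca8a and Pcdh9 had 1 UMI each. C7, Abca8a and Pcdh9 lead 1 fibroblast-like cluster and Bnc2 and Tnc another, and heat-shock-high nuclei of the cluster were deeper than the others, with medians of 3358, 1763 and 2399 against 1224.5, 1129 and 1456 UMIs. With the nearest nucleus by UMIs in place of all others 634 genes could be tested, of which 20 were higher and 12 lower. With doublets removed 21 genes were lower.

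Inside the unnamed cluster 214 heat-shock-high nuclei were compared with 180 others of NS-I/R. Those others carried the 4 genes too. Over the 2 unnamed clusters of NS-I/R, nuclei outside the set averaged 3.5 UMIs of the 4 genes, against 0.219 to 0.528 in the named cluster classes. The calls are thus not differences from nuclei with little of these genes. They differed in 17 of 1869 genes (0.91%), 13 higher (0.696%) and 4 lower (0.214%). Hsp90aa1 had 8957, 9129 and 31394 CPM against 2641, 2942 and 1564 CPM (2.44 ± 0.43, adjusted p = 0.00426), so that the kinds of nuclei did not overlap. These CPM are scaled to 1869 genes, against 8740 in the matched comparison, so the levels of the 2 fits cannot be compared. Hspe1, Hspb1, Jun, Hspd1, Bag3, Hspa8, Dnaja1 and Hsp90ab1 also rose, by 2.06 to 3.13. The endothelial sialomucin gene Emcn (2.49 ± 0.57), Fgd6 and Parp9 were higher, and Rbms3 (−2.88 ± 0.60), Aig1 and Glis3 were lower. Leaving out any 1 of the 3 libraries left 0 genes called, with 118 to 350 at an unadjusted p under 0.05.

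The 7 heat-shock-high nuclei of Enpa-I/R hearts had 7 to 159 UMIs of the 4 genes, with a median of 14, and 5 of them fell into the unnamed cluster. By marker class 3 were endothelial-like, 1 was pericyte-like and 3 had none. Summed over the 7, Hsp90aa1 stood at 4832 CPM (77 UMIs, 95% Poisson interval 3814 to 6040) against 63.8 CPM in the other 14154 Enpa-I/R nuclei, Bag3 at 1318 CPM (816 to 2015) against 169 CPM, Egr1 at 753 CPM (389 to 1316) against 17.4 CPM and Jun at 565 CPM (258 to 1072) against 31.6 CPM. With 1 to 4 nuclei per library these sums have no replicate check, and neither heat-shock-high nuclei of the 2 I/R groups nor their responses could be compared by a test.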

How the data were processed

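Nuclei of 9 mouse hearts, 3 per group, were profiled by 10x single-nucleus RNA sequencing with 1 library per heart. The deposited matrices hold raw UMI counts per gene and barcode, made by the authors with Cell Ranger 8.0.0 per the file headers, while the submitters' processing notes name Cell Ranger 6.1.1, Seurat, GRCm39 and GRCh38 with no role. Whether the counting used strand is not given in the sources used here. The members and all gene lists were chosen with earlier results of these data known. Barcodes with at least 500 genes and at most 5% mitochondrial UMIs were kept, doublets included. Clustering (scanpy 1.11.5, 2000 variable genes, 30 principal components, 15 neighbours, Leiden resolution 1) left out the 4 genes and the chaperone and heat shock lists, and clusters were named from fixed markers.

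UMIs were summed per library and tested with edgeR 4.0.16 (quasi-likelihood, filterByExpr, TMM, library block, Benjamini-Hochberg, R 4.3.3). The 4 genes were left out before library sizes were taken, and these were taken over the genes past the filter. The planned tests compared heat-shock-high with other nuclei of a cluster class that had 10 or more in each of 3 libraries, which only the unnamed and neutrophil-like clusters had. Comparisons with matched nuclei and within marker classes, with all their alternatives, and the rule of 2 different markers, were added after the data were seen. Because the 7 nuclei of Enpa-I/R were too few, the planned tests between the I/R groups could not be made.

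Genes named are all members of both chaperone lists, up to 12 increases and 12 decreases with at least 10 CPM on average and 1 direction in every library (leaving out symbols that end in Rik or begin with mt- or with Gm and a digit), and up to 4 called genes of each other list. On simulated data with 200 of 8740 genes changed, the matched comparison called 21.5% of changes of log2 1 and 77.5% of log2 2. It also called 2 and 15 unchanged genes. In the endothelial-like marker class the same shares were 0% and 19.5%, and in the neutrophil-like marker class 0% and 44%. They were 1.5% and 27% in the neutrophil-like cluster and 2% and 75.5% in the unnamed cluster. A gene not called in these fits may thus still differ. Alternatives were DESeq2 1.42.0, other filters, thresholds and comparison nuclei, no block, doublets removed with Scrublet scores, and each library left out.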

Additional observations from a re-analysis of the deposited data

Results flagged for a closer look

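Barcodes outside the gene and mitochondrial limits were not used above, and some of them met the 4-gene limits too. In NS-I/R 64 of 4119 such barcodes did, 29, 15 and 20 in replicates 1 to 3, and in Enpa-I/R 4 of 4040 did. In NS-Sham 0 of 4177 did, and both I/R groups were singled out for exceeding that.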

How the results depend on the processing

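The mean NS-I/R share stayed between 1.35% and 2.61% over the other rules, and between 1.21% and 2.63% with 1 library left out. For Enpa-I/R these were 0.0327% to 0.0793% and 0.0269% to 0.0779%. The NS-Sham share was 0.0142% at 3 UMIs and 0.3%, and 0.00521% with nuclei thinned to 1000 UMIs. Against matched nuclei 615 genes were higher, and 294 with 1 nearest nucleus, 409 with DESeq2, 188 with no block, 325 with classed nuclei only and 369 to 940 with 1 library left out. The 162 lower genes became 78 with 1 nearest nucleus, 477 with no filter, 59 with DESeq2, 8 with no block, 60 with classed nuclei only, 244 without cardiomyocyte-like nuclei and 91 to 431 with 1 library left out. In the unnamed cluster the 13 higher genes became 23 at 10 UMIs and 1%, and the 4 lower became 9 with doublets removed, 7 with no filter, 1 with DESeq2, 0 with no block and 15 at 10 UMIs and 1%, and both were 0 with 1 library left out. In the neutrophil-like cluster the 99 higher genes became 44 with no filter, 58 with DESeq2, 61 with no block, 20 against the nearest nucleus and 34 to 53 with 1 library left out. The 64 lower became 21 with doublets removed, 5 with DESeq2, 22 with no block, 12 against the nearest nucleus and 3 to 33 with 1 library left out. In the endothelial-like marker class 151 higher became 326 and 78 lower became 164 with no block, and 20 were lower with DESeq2. In the neutrophil-like marker class 90 higher became 49 with no filter and 55 with no block, and 28 lower became 97 with no filter, 1 with DESeq2 and 1 with no block. The cause of these changes was not tested. Against matched nuclei and in both clusters no named gene that was called reversed its direction, while 81, 99 and 55 single-gene values lost the call against matched nuclei, in the neutrophil-like and in the unnamed cluster. Between groups, no paired analysis was possible because sham libraries held no heat-shock-high nuclei and each Enpa-I/R library fewer than 10, while the library block above pairs the 2 sums of each NS-I/R heart. A 20% mitochondrial limit was not run for the gene fits, and the neutrophil-like cluster at 10 UMIs and 1% could not be fitted. For the unnamed cluster the nearest nucleus gave no test of its own, since all other nuclei of the cluster were used again. Depth limits what could be called, since a heat-shock-high nucleus had a median of 1775 UMIs.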

Other observations

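Genes beside the heat shock genes were looked at after 2 of the leading genes of the unnamed cluster, 1700001K19Rik and 1110038B12Rik, were seen to lie next to them. For 30 genes, the 26 called genes of the chaperone and heat shock lists and the 4 of the rule, the nearest gene on each side was taken from the gene order of GENCODE M21. Of the next genes downstream on the same strand 5 of 10 tested were higher in heat-shock-high than in matched nuclei and 0 lower, with a median log2 fold change of 1.49, against 7.04% higher over all genes. They were 1700001K19Rik after Hsp90aa1 (4.68 ± 0.37), at 485 ± 414 against 19.3 ± 21.9 CPM (SD, n = 3), 1110038B12Rik after Hspa1b (4.61 ± 0.38), at 728 ± 451 against 27.6 ± 12.7 CPM, Gipc2 after Dnajb4 (2.04), Gipc1 after Dnajb1 (1.90) and Mob4 after Hspe1 (1.09). 1700001K19Rik and 1110038B12Rik prompted this search, so the 5 of 10 and its median are in part fixed by that choice. Downstream on the opposite strand 2 of 5 were higher, upstream on the opposite strand 4 of 12 and upstream on the same strand 0 of 5. Mob4 counts again among these 4, as the upstream neighbour of Hspd1. Since neither the strand used in counting nor the overlap of these genes is known here, reads of neighbours cannot be told apart, and no cause was tested.

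The next gene downstream of a called immediate early gene was higher in 3 of 9 tested, against 7.04% higher over all genes. These were Gm34455 after Dusp1 (3.33), Rnaseh2a after Junb (1.77) and Gm47507 after Klf6 (1.61), all on the same strand. Flot1, Stx17 and Plekhg2 on the same strand were not called, nor were Etf1, Cacna1a and Kcnj3 on the opposite strand.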
